A study of Danio rerio with 8 samples.

Results

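Hearts of larvae 3 days old were compared directly with hearts of adult zebrafish 3 days after their ventricular muscle was ablated, to show where a growing and a regenerating heart held the same transcripts at similar levels and where they differed. The comparison rests on 4 of the 8 bulk RNA sequencing libraries of the series, 2 of each kind, chosen by their labels. The larval libraries, called larval here, were made at 72 hours post fertilization from about 500 pooled hearts each and are labelled as untreated. The adult libraries, called 3 dpi (days post injury), pooled 4 to 6 hearts of fish about 6 months old. Those fish had 5 mM metronidazole with 0.1% dimethyl sulfoxide for 48 hours, and the ablation uses the line vmhc:mCherry-NTR, in which the promoter of the ventricular myosin gene vmhc drives a bacterial nitroreductase that turns metronidazole into a toxin. The labels list that line, wild-type AB and the heat-shock lines hsWnt8:GFP and hsDKK1:GFP without saying which of them gave the larvae. Age, ablation, drug and possibly genotype therefore differ at once between the groups, and no group received the drug without ablation.

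Zebrafish rebuild lost heart muscle by division of surviving cardiomyocytes, which lower their contractile programme and return in part to an embryonic one, while epicardium, endocardium, nerves and macrophages supply signals and matrix. Larval hearts of this age beat and circulate embryonic red cells, and their muscle still grows by division. Protein synthesis in growing cells depends on amino acid supply and on the kinase mTOR, which the series title ties to heart regeneration.

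Total counts were 17266995 and 19457858 in the larval libraries and 11856744 and 14190080 at 3 dpi. Levels are given as CPM, the usual per-library count scale, here with TMM factors that correct for library composition, always in the order larval replicates 1 and 2 and then 3 dpi replicates 1 and 2. Across genes, the log2 CPM of the larval replicates correlated at 0.986, those of the 3 dpi replicates at 0.969, and libraries of different groups at 0.643 to 0.662. Such correlations describe the libraries, since genes are not independent replicates. The 3 dpi replicates differed from each other in several gene groups: macrophage genes summed to 9309 CPM in replicate 1 and 4303 CPM in replicate 2, cell cycle genes to 1519.8 and 705 CPM, and thick filament genes to 17003 and 33288 CPM. Column names carry 1 run prefix for the larval libraries and another for 3 dpi, although the labels state that libraries were sequenced together, so the run cannot be told apart from the group. The labels do not say that the 2 pools of a group came from separate clutches or experiments, so p-values measure spread between pools. That spread was estimated over all 8 libraries of the series and shared across genes, so it can differ from the spread at 3 dpi.

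Both groups held heart muscle transcripts, and the larval libraries also held transcripts of many other larval tissues. The pan-cardiac myosin light chain gene myl7 (ENSDARG00000019096) stood at 1538, 1629, 3193 and 7568 CPM. epcam, an epithelial surface gene, was at 459.6, 476, 0 and 0.208 CPM, and the skin keratin gene krtt1c19e at 277, 204, 0 and 0.156 CPM. The gut fatty acid binding gene fabp2 was at 155, 135, 0 and 0.0519 CPM. These other-tissue genes were abundant in larval pools and at or near 0 at 3 dpi. The fast skeletal muscle light chain mylpfa was at 439, 427, 0.579 and 0.416 CPM, and the lens crystallin crygm2d10 had 0 counts at 3 dpi and 127 and 78.4 CPM in larval pools. The fin fold gene and2 (actinodin) was at 2131, 1883, 0.290 and 0.104 CPM.

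Whole marker lists leaned to larval pools as well, though their sums at 3 dpi were well above 0. Of 48 tested eye and nervous system markers, 39 were higher in larval pools and 3 at 3 dpi, and their summed level was 1746 and 1071 CPM against 64.3 and 79.3 CPM. Of 51 markers of liver, gut, pancreas and yolk, 36 were higher in larval pools and 4 at 3 dpi, summing to 1310.3 and 1201 CPM against 398 and 366 CPM. Of 56 markers of skin, cartilage, notochord, kidney and pharynx, 43 and 6 were higher, summing to 4771 and 4355 CPM against 1681 and 1644 CPM, and of 41 skeletal muscle markers 31 and 6, summing to 2040.5 and 1925 CPM against 1268 and 1727 CPM. Over all 19330 genes tested, 28.7% were higher in larval pools and 25.3% at 3 dpi, so all 4 lists leaned further toward larval pools than genes at large. Without 3 dpi replicate 2 the members higher at 3 dpi were 2 of the liver list and 3 of the skeletal list. The median log2 fold changes of the 4 lists were 4.80, 4.45, 4.63 and 5.98, beside 0.09 over all genes tested, and 4.44, 4.11, 4.57 and 5.57 with genes at 0 counts in a group set at their bound. Without 3 dpi replicate 2 the eye and the liver medians were 6.42 and 5.45, and without 3 dpi replicate 1 the liver median was 5.12. The part of these tissues in the differences below was not tested, and fewer cells of a type cannot be told apart from less RNA per cell in bulk libraries.

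Most genes differed between the groups, and likeness was limited to a smaller set. Of 19330 genes, 10449 passed an adjusted p of 0.05 in the edgeR quasi-likelihood test, or 54.1%, with 5552 higher in larval hearts (28.7%) and 4897 higher at 3 dpi (25.3%). The log2 fold change, larval minus 3 dpi throughout, had a median of 0.09 and quartiles of -0.95 and 1.23. Among the called genes 5426 differed by over 4-fold and 2665 by over 16-fold. The counts of called members that the lists below have in this fit are to be read beside the 28.7% and 25.3% of all genes. Under other settings the calls over all genes changed as well, and they were fewer with 1 library left out. List counts from such settings are therefore not to be set beside these 2 shares. With library totals 6185 of 19330 genes were higher in larval hearts and 4144 at 3 dpi. In 83.2% of genes both larval libraries lay on the same side of both 3 dpi libraries. Without larval replicate 2 the count of called genes was 6792, and library totals as the scale raised the median log2 value by 0.17 and took the share of called genes that were higher in larval hearts from 53.1% to 59.9%, so differences near that shift depend on the scaling.

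Likeness was tested separately, because a missed threshold does not show that levels were alike. No gene passed the adjusted edgeR-based test of lying within 2-fold (0.00%, smallest adjusted p 0.0578), whereas 3751 had an unadjusted p under 0.05, and the same test gave 1065 genes with limma voom and 1458 with DESeq2. With a margin of 3-fold, chosen after seeing the data, 6582 genes passed. As a description without adjustment, 2849 genes (14.7%) had their own 95% interval inside 2-fold, 34 of them also called different. A gene with such an interval is called alike below, and alike counts of the lists are to be read beside that 14.7%. Without larval replicate 1 there were 1270 such genes, and without larval replicate 2 there were 1410. The remaining 6066 genes were neither called nor alike and are undecided.

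At the extremes stood blood, immune and surface tissue genes. Among the 25 largest fitted differences toward 3 dpi were adult globin, class II antigen presentation and complement genes: mhc2dab, an antigen presentation gene, had 0 counts in larval pools and 104 and 70.0 CPM at 3 dpi, at least 1663-fold higher against a floor of 3 counts over the larval group. Among the 25 toward larval hearts were lens, skin and fin genes and an embryonic globin gene. plac8.1 was at 289 and 279 CPM with 0 counts at 3 dpi, at least 3456-fold higher, the matrix gene emilin3a at least 1945-fold and the epithelial transcription factor gene elf3 at least 1499-fold. In all, 590 genes called higher in larval hearts had 0 counts at 3 dpi, and 157 called higher at 3 dpi had 0 counts in larval hearts. Such folds cover counting error only.

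**Figure D1:**
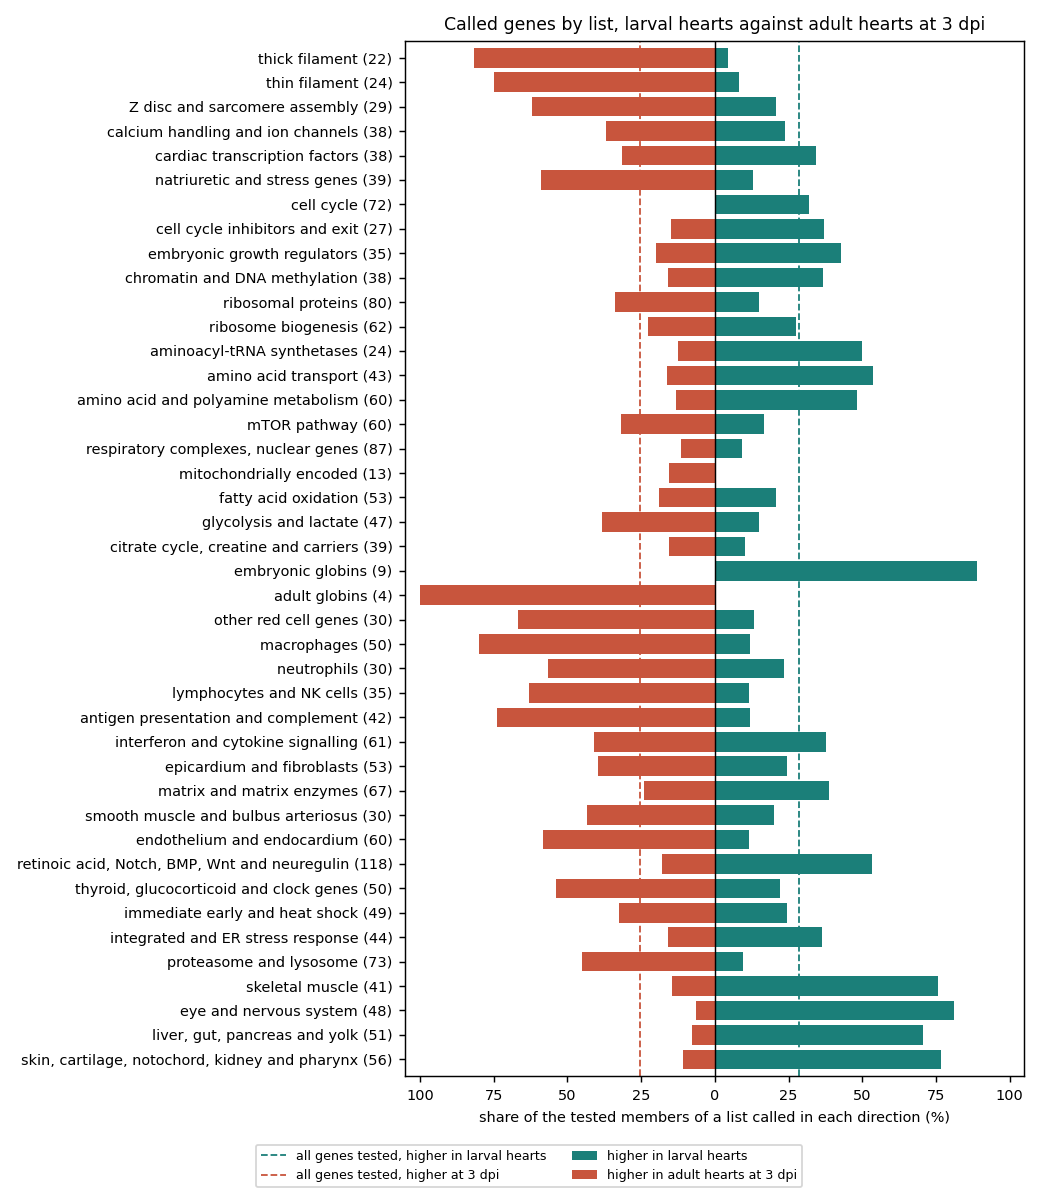
For each of 42 gene lists (tested members in brackets) the bars give the share of tested members called higher in larval hearts (green, right) and higher at 3 dpi (red, left), in percent; dashed lines are the shares over all 19330 genes tested, 28.7% and 25.3%. Contractile, macrophage and antigen presentation lists reach far left, and amino acid and other-tissue lists reach far right.

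Most tested genes of the contractile apparatus were lower in larval hearts. The thick filament list (myosins and their binding proteins) had 22 tested members, of which 1 was higher in larval hearts and 18 were higher at 3 dpi, with a median log2 fold change of -2.06 (-1.40 without 3 dpi replicate 2) and a summed level of 4036 and 3906 CPM against 17003 and 33288 CPM. Of 24 thin filament genes 2 were higher in larval hearts and 18 at 3 dpi (median -2.58), and of 29 genes of the Z disc and of sarcomere assembly 6 and 18 (median -2.19). Summed levels of all 3 lists were higher in each 3 dpi library than in either larval library. Without 3 dpi replicate 2 the thin filament and Z disc medians were -2.18 and -1.78. With library totals 15 thick filament, 15 thin filament and 17 Z disc genes were higher at 3 dpi. Tested against a fold of 2, these numbers were 12, 13 and 17, with 1, 1 and 4 higher in larval hearts.

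vmhc (ENSDARG00000079564), whose promoter drives the ablating enzyme, stood at 439, 369, 1051 and 545 CPM. Its log2 fold change was -0.98 (SE 0.32) with an adjusted p of 0.0231, and the larval libraries lay below both 3 dpi libraries. The call was lost with library totals, and also without larval replicate 1 (adjusted p = 0.0692), without larval replicate 2 (0.16) and without 3 dpi replicate 1 (0.222). Its paralog vmhcl (ENSDARG00000079782), another ventricular myosin gene, was at 704, 577, 4346 and 7380.3 CPM, a log2 fold change of -3.19 (SE 0.47, adjusted p = 2.53e-04). myl7 differed by a log2 fold change of -1.76 (SE 0.49, adjusted p = 0.0108), and lost its call without larval replicate 1 (adjusted p = 0.0819), larval replicate 2 (0.0762) or 3 dpi replicate 2 (0.067).

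Other muscle genes differed far more. myh6 (ENSDARG00000090637), the atrial myosin heavy chain of zebrafish, was at 41.2, 51.1, 1903 and 5046 CPM, a log2 fold change of -6.23 (SE 0.66, adjusted p = 3.10e-05) and -5.37 without 3 dpi replicate 2. The oxygen-binding myoglobin gene mb (ENSDARG00000031952) was at 70.12, 62.6, 5213 and 9754 CPM, a log2 fold change of -6.82 (SE 0.55, adjusted p = 5.67e-06). For both genes the larval libraries lay close together and far below both 3 dpi libraries. Values in brackets after a gene are its log2 fold change, larval minus 3 dpi, with its standard error, and every gene called higher or lower passed an adjusted p of 0.05 in edgeR. The light chain gene cmlc1 was lower in larval hearts (-5.02, SE 0.57), the cardiac troponin T gene tnnt2a (-4.61, SE 0.47), the troponin I gene tnni1b (-3.50, SE 0.45), the tropomyosin gene tpm4a (-4.30, SE 0.52), the desmin gene desma (-3.90, SE 0.31), the filamin C gene flnca (-4.37, SE 0.39), the leiomodin gene lmod2b (-3.84, SE 0.33), nrap (-5.18, SE 0.30) and xirp1 (-3.94, SE 0.33). The desmosome gene dspa was alike at 99.2, 85.6, 110.5 and 121 CPM, with a log2 fold change of -0.32 (95% interval -0.83 to 0.18). Skin markers stood higher in the larval pools, and their part in the dspa level was not tested. Likeness was lost for dspa without larval replicate 1 or 3 dpi replicate 1.

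Paralogs of the same protein family were used in different proportions, a comparison that no scaling changes and that was chosen after the values were seen. vmhc took 38.4% and 39.0% in larval libraries and 19.5% and 6.88% at 3 dpi of the reads of vmhc and vmhcl together. atp2a2b took 55.3% and 56.4% in larval libraries and 8.80% and 4.099% at 3 dpi of the reads of both SERCA2 genes, and the other, atp2a2a, the rest. In both pairs each larval library had a larger share of the first gene than each 3 dpi library. The actin gene actc1b took 99.5% and 99.6% in larval libraries and 0.0376% and 0.0811% at 3 dpi of the reads of actc1b and actc1c. actc1c itself was at 1.301, 0.999, 462 and 768 CPM, and actc1b at 258, 278, 0.174 and 0.623 CPM. The larval and 3 dpi libraries thus held almost only opposite members of that pair. Skeletal muscle markers went the same way as actc1b, with 31 of 41 tested higher in larval hearts and 6 at 3 dpi. The part of skeletal muscle in the actc1b level was not tested. Reads shared by near-identical paralogs may be split in ways that the sources used here do not give, and shares within a library also depend on transcript length, so they are compared only across libraries.

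Calcium and ion channel genes were less one-sided. Of 38 tested, 9 were higher in larval hearts (23.7%) and 14 at 3 dpi (36.8%), beside 28.7% and 25.3% of all genes (median -0.80). The balance depended on the 3 dpi replicate kept: the list median was -1.07 without 3 dpi replicate 1 and -0.27 without 3 dpi replicate 2. Called members leaned to 3 dpi without 3 dpi replicate 1 but not without 3 dpi replicate 2. Those higher in larval hearts and at 3 dpi numbered 9 and 13 with library totals. They numbered 9 and 17 without the 7 dpi libraries and 9 and 18 with no filter. The calcium pump gene atp2a2a was at 289.8, 316, 1373 and 2746 CPM, a log2 fold change of -2.76 (SE 0.39, adjusted p = 2.05e-04), while its paralog atp2a2b was at 358, 409, 132 and 117 CPM, higher in larval hearts (1.62, SE 0.24). The skeletal pump gene atp2a1 was at 226, 233, 1.27 and 2.49 CPM. The sodium-calcium exchanger gene slc8a1a was lower in larval hearts (-1.46, SE 0.39, adjusted p = 0.0089), a call lost without larval replicate 1 (adjusted p = 0.0651) or 3 dpi replicate 2 (0.0871). The potassium channel gene kcnh6a was lower (-1.48, SE 0.24). The sodium pump gene atp1a1a.1 was alike, with a log2 fold change of -0.41 (95% interval -0.96 to 0.14). For pln1, a phospholamban family gene, the groups overlapped at 341, 349.7, 331 and 725 CPM, and casq2, the cardiac calsequestrin gene, was likewise undecided at 215, 230.0, 166 and 424 CPM. Log2 fold changes of pln1 and casq2 were -1.09 and -0.95 without 3 dpi replicate 1, and 0.05 and 0.42 without 3 dpi replicate 2. An interval past 2-fold was found for atp1a1a.1 without larval replicate 1 or 2 or 3 dpi replicate 1. By setting, likeness ended for atp1a1a.1 with no 7 dpi libraries and with a replicate block in the fit.

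**Figure D2:**
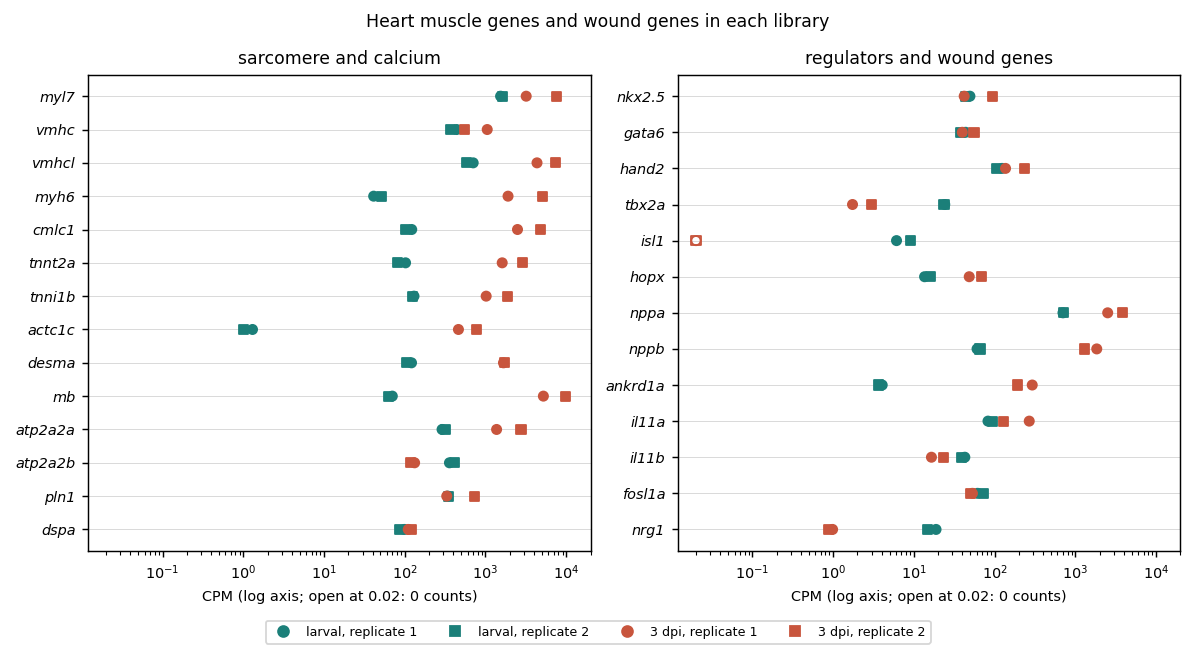
Level of each gene in CPM (log axis) in the 4 libraries, larval in green and 3 dpi in red, circles for replicate 1 and squares for replicate 2; open symbols at 0.02 stand for 0 counts. The muscle genes myh6, tnnt2a, actc1c and mb lie far higher at 3 dpi, atp2a2b lies higher in larval hearts, and dspa and gata6 lie close together.

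Cardiac transcription factor genes were called in both directions. Of 38 cardiac transcription factor genes 13 were higher in larval hearts (34.2%) and 12 at 3 dpi (31.6%), near the 28.7% and 25.3% of all genes. Their median of -0.13 turned to 0.05 with library totals and to 0.53 without 3 dpi replicate 2. Toward larval hearts and toward 3 dpi the counts became 12 and 6 without larval replicate 1, 12 and 3 without larval replicate 2, 15 and 6 without 3 dpi replicate 2 and 14 and 7 with library totals. nkx2.5 (ENSDARG00000018004), an early cardiac homeobox gene, was at 49.4, 44.0, 42.0 and 94.8 CPM, so the groups overlapped. It was undecided (-0.55, SE 0.34, adjusted p = 0.191). Its log2 fold change was -1.04 without 3 dpi replicate 1 and 0.15 without 3 dpi replicate 2. gata6, a cardiac zinc finger gene, was alike at 43.7, 37.7, 39.8 and 55.4 CPM, and mef2d, a muscle factor gene, at 59.3, 54.7, 65.0 and 77.7 CPM. gata5 was lower in larval hearts (-0.67, SE 0.23, adjusted p = 0.0328 in edgeR). Its call was lost with library totals, with a replicate block in the fit and without the low-count filter. The call was also lost without larval replicate 1 or 2 or 3 dpi replicate 2, with a log2 fold change of -0.43 in the last. hand2, needed for growth of the ventricle, was undecided at 124, 105.5, 137 and 234 CPM, and passed as lower in larval hearts without 3 dpi replicate 1 (adjusted p = 0.0481). Likeness did not hold for gata6 and mef2d without larval replicate 1 or 3 dpi replicate 1.

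Of the same list, isl1 and tbx2a were higher in larval hearts and hopx and zfpm2a at 3 dpi. isl1 (ENSDARG00000004023), a gene of cardiac progenitors and pacemaker cells, was at 6.09 and 9.12 CPM with 0 counts at 3 dpi, at least 93.9-fold higher. tbx2a, a gene of the atrioventricular canal, was at 24.1, 23.6, 1.74 and 2.96 CPM, a log2 fold change of 3.33 (SE 0.40, adjusted p = 6.82e-05). The ventricular gene irx4a was at 5.54, 4.38, 0.0579 and 0 CPM. Higher at 3 dpi were hopx (-2.00, SE 0.27), a homeodomain gene that restrains cardiac growth in mice, and zfpm2a (-2.69, SE 0.34), a Gata cofactor gene. Several of these factors also act outside the heart, and the part of the other tissues in the larval pools was not tested.

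Genes of cardiac stress and wounding stood mostly higher at 3 dpi. Of 39 tested natriuretic and stress genes 5 were higher in larval hearts and 23 at 3 dpi (median -2.07). Counts of members higher in larval hearts and at 3 dpi were 2 and 20 without larval replicate 2. The natriuretic peptide gene nppb (ENSDARG00000052958) was at 60.6, 65.8, 1841 and 1289.9 CPM, a log2 fold change of -4.63 (SE 0.31, adjusted p = 1.74e-06), and nppa (ENSDARG00000052960) at 702, 712, 2514 and 3797 CPM, a log2 fold change of -2.16 (SE 0.32, adjusted p = 3.02e-04). Levels of both were lower in each larval library than in each 3 dpi library. ankrd1a, a muscle stress gene outside the rule for named genes and chosen after its values were seen, was at 4.05, 3.68, 292 and 194 CPM. The plasminogen activator gene plaua was lower in larval hearts (-5.24, SE 0.32), the haem oxygenase gene hmox1a (-6.16, SE 0.33) and the membrane repair gene anxa2a (-4.02, SE 0.34). lepb, a leptin gene known from injured zebrafish tissue and also chosen after its values were seen, was at 0.892, 1.45, 160.0 and 13.7 CPM, so the 3 dpi replicates differed widely from each other. Its log2 fold change of -6.19 (SE 0.98) was -3.56 without 3 dpi replicate 1 and -7.08 without replicate 2.

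The pair of interleukin 11 genes, cytokines of regenerating fish tissue, went opposite ways. il11a (chosen after its values were seen) was at 82.8, 94.6, 268 and 130.2 CPM, a log2 fold change of -1.17 (SE 0.40, adjusted p = 0.029), and il11b (ENSDARG00000058557) at 42.7, 38.5, 16.5 and 23.0 CPM, a log2 fold change of 1.04 (SE 0.31, adjusted p = 0.0147). The il11a call was lost with library totals and with DESeq2. Both calls were lost without larval replicate 1 or 2 or 3 dpi replicate 1. Without 3 dpi replicate 1 the log2 fold changes of il11a and il11b were -0.57 and 0.80. il11b took 34.1% and 28.9% in larval libraries and 5.79% and 15.02% at 3 dpi of the reads of the pair. Of their signalling partners, il6st, the shared receptor subunit gene, was alike at 319, 347, 231 and 277 CPM, and the feedback inhibitor gene socs3b was undecided at 208, 214, 154 and 145 CPM. fosl1a, an AP-1 factor gene, was alike at 61.4, 72.1, 53.1 and 50.1 CPM, with a log2 fold change of 0.37 (95% interval -0.22 to 0.97). Leaving out a library ended likeness for il6st without larval replicate 1 or 2 or 3 dpi replicate 2 and fosl1a without any 1 of the 4 libraries. Likeness also ended for il6st with RLE size factors, library totals, limma voom, no 7 dpi libraries and a replicate block. For fosl1a it ended with RLE size factors, library totals and DESeq2.

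nrg1 (ENSDARG00000104314), which encodes a neuregulin that drives cardiomyocyte division, was at 18.8, 14.6, 0.984 and 0.883 CPM, a log2 fold change of 4.15 (SE 0.52, adjusted p = 8.87e-05). Its receptor gene erbb3b was at 32.6, 32.4, 0.0579 and 0.104 CPM, and hbegfa, an EGF family ligand gene, was higher in larval hearts (1.29, SE 0.25). The fibronectin genes split: fn1a was at 653, 895, 480.1 and 240.2 CPM, a log2 fold change of 1.104 (SE 0.34, adjusted p = 0.0183), and fn1b at 318, 313, 2301 and 1265 CPM, a log2 fold change of -2.50 (SE 0.34, adjusted p = 1.73e-04). The fn1a call was lost without larval replicate 2 (adjusted p = 0.119) or 3 dpi replicate 2 (0.11). fn1a took 67.2% and 74.1% in larval libraries and 17.3% and 15.96% at 3 dpi of the reads of both, a larger share in each larval library. erbb3b is also a gene of neural crest and glia. Eye and nervous system markers as a list leaned to the larval pools. The part of other tissues in the nrg1 and erbb3b levels was not tested.

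Cell cycle genes were called higher in larval hearts at a share near that of all genes and hardly at 3 dpi, and the 3 dpi replicates differed. Of 72 tested, 23 were higher in larval hearts (31.9%, beside 28.7% of all genes) and 4 were alike, with a median of 0.71. Called higher at 3 dpi by edgeR, DESeq2 or limma voom were 0 (0.0%, beside 25.3% of all genes). At an unadjusted p under 0.05 in edgeR there were 0 as well. An edgeR fit of the 4 libraries alone called 1 higher at 3 dpi, and some were also called in that direction without 3 dpi replicate 2. The list median was 1.93 without 3 dpi replicate 1 and 0.11 without replicate 2. pcna (ENSDARG00000054155), the replication clamp gene, was at 350.4, 332, 122 and 64.6 CPM, a log2 fold change of 1.87 (SE 0.29, adjusted p = 3.90e-04). The mitotic cyclin gene ccnb1 was at 60.1, 58.1, 13.5 and 3.69 CPM, and its log2 fold change of 2.78 (SE 0.47) was 3.98 without 3 dpi replicate 1 and 2.12 without replicate 2. ccne2, a cyclin gene of S phase entry, was higher in larval hearts (2.90, SE 0.40), and the checkpoint gene bub3 (1.71, SE 0.26).

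mki67 (ENSDARG00000091150) was at 93.8, 82.9, 71.7 and 16.2 CPM, and the topoisomerase gene top2a (ENSDARG00000024488) at 55.5, 48.7, 68.7 and 12.4 CPM: replicate 1 of 3 dpi was close to or above the larval libraries and replicate 2 was far below replicate 1. Both were undecided (log2 fold changes of 1.01 and 0.36). Without 3 dpi replicate 1 the values of mki67 and top2a were 2.43 and 2.05, and without replicate 2 they were 0.30 and -0.40. The helicase genes mcm5, at 24.2, 29.6, 33.8 and 20.9 CPM, and mcm7 were alike (log2 fold changes of -0.02 (95% interval -0.75 to 0.70), and 0.17 (95% interval -0.50 to 0.83)), as was the cytokinesis gene kif23 (0.05, interval -0.77 to 0.87). 3 dpi replicate 1 also held the higher macrophage sum, and whether its dividing cells were muscle or immune cells was not tested. The interval no longer lay inside 2-fold for mcm5 and kif23 without any 1 of the 4 libraries and mcm7 without larval replicate 2 or 3 dpi replicate 1. By setting, likeness ended for mcm7 with library totals and kif23 with library totals, limma voom and a fit of the 4 libraries.

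Regulators of entry into and exit from the cycle were called in both directions. Of 27 genes in that list 10 were higher in larval hearts, 4 at 3 dpi and 6 were alike (median 0.26). For larval hearts and 3 dpi the numbers were 9 and 2 without 3 dpi replicate 2. The cyclin gene ccnd1 (ENSDARG00000101637) was at 125, 129, 19.3 and 28.6 CPM, a log2 fold change of 2.405 (SE 0.23, adjusted p = 1.67e-05). cdkn1a (ENSDARG00000076554), an inhibitor gene of cyclin-dependent kinases, was at 2.56, 2.90, 17.3 and 21.6 CPM, a log2 fold change of -2.82 (SE 0.30, adjusted p = 3.01e-05), and the ubiquitin ligase gene mdm2 was lower in larval hearts (-2.33, SE 0.24). For both of these genes the libraries did not overlap between groups. The stress gene gadd45bb was higher in larval hearts (2.30, SE 0.28), and the p27 inhibitor gene cdkn1ba was alike (-0.40, interval -0.87 to 0.06). Likeness was lost for cdkn1ba without larval replicate 1 or 2 or 3 dpi replicate 2.

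Embryonic growth regulators leaned to larval hearts, and several were near 0 in the adult. Of 35 tested, 15 were higher in larval hearts and 7 at 3 dpi (median 0.85). The oncofetal RNA-binding gene igf2bp1 (ENSDARG00000061478) was at 174, 168, 1.74 and 1.299 CPM, a log2 fold change of 6.81 (SE 0.33, adjusted p = 4.17e-07). Its relative igf2bp3 was at 36.3, 33.4, 0.579 and 0.104 CPM, and sall4, a stem cell factor gene, at 41.4, 37.8, 0.290 and 1.04 CPM. The architectural chromatin gene hmga2 was at 59.5, 69.9, 2.08 and 2.65 CPM, a log2 fold change of 4.77 (SE 0.38, adjusted p = 5.54e-06), and hmga1a was higher in larval hearts (2.58, SE 0.35). lin28a, an embryonic repressor of let-7 microRNAs chosen after its values were seen, had 0 counts at 3 dpi and 4.53 and 4.64 CPM in larval hearts, at least 55.9-fold higher. These embryonic genes were low or at 0 in both adult pools.

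Not every growth gene followed. The growth factor gene igf2b (ENSDARG00000033307) was at 36.5, 38.07, 220.2 and 196 CPM, a log2 fold change of -2.48 (SE 0.23, adjusted p = 1.36e-05), and mycb (ENSDARG00000007241) at 26.9, 23.5, 148 and 118 CPM, a log2 fold change of -2.396 (SE 0.23, adjusted p = 1.66e-05), both higher in each 3 dpi library. Its relatives myca, at 9.48, 7.96, 8.97 and 8.73 CPM, and mych, at 69.3, 52.5, 48.5 and 56.0 CPM, were alike, as was the insulin receptor substrate gene irs2b (-0.09, interval -0.71 to 0.53). igfbp7, an insulin-like growth factor binding gene, was lower in larval hearts (-3.74, SE 0.26). Among 38 chromatin genes 14 were higher in larval hearts (36.8%) and 6 at 3 dpi (15.8%), beside 28.7% and 25.3% of all genes, and 8 were alike (median 0.18). The DNA methyltransferase gene dnmt3ba was at 75.9, 95.7, 8.40 and 6.03 CPM. The Polycomb gene ezh1 was lower in larval hearts (-2.402, SE 0.21), as was the nuclear lamina gene lmna (-1.298, SE 0.25). The deacetylase gene hdac1 (-0.13, interval -0.57 to 0.31), the demethylase gene kdm1a (0.12, interval -0.29 to 0.54) and the Polycomb gene eed (0.01, interval -0.52 to 0.54) were alike. The markers of other larval tissues given above moved the same way as the larval growth genes, and their part was not tested. An interval past 2-fold was found for myca without larval replicate 1 or 2 and mych without larval replicate 2.

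Of 24 cytosolic and mitochondrial aminoacyl-tRNA synthetase genes, which load amino acids onto tRNAs, 12 were higher in larval hearts, 3 at 3 dpi and 7 were alike (median 0.75). tars (ENSDARG00000013250), for threonine, was at 328, 293, 80.6 and 68.1 CPM, a log2 fold change of 2.06 (SE 0.22, adjusted p = 3.36e-05). gars, for glycine, was higher in larval hearts (1.88, SE 0.22), aars, for alanine (1.86, SE 0.23) and sars, for serine (1.55, SE 0.20). kars (0.21, interval -0.44 to 0.86), wars (-0.13, interval -0.69 to 0.43), eprs (0.29, interval -0.18 to 0.77) and rars (-0.25, interval -0.78 to 0.28), for lysine, tryptophan, glutamate with proline, and arginine, were alike. aimp1, a scaffold of the synthetase complex, was lower in larval hearts (-1.68, SE 0.29). Likeness did not hold for kars without larval replicate 1 or 2 or 3 dpi replicate 1, wars without larval replicate 1, eprs without larval replicate 2 or 3 dpi replicate 1 and rars without larval replicate 1 or 3 dpi replicate 2.

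Ribosome biogenesis genes were called different at shares near those of all genes, and many of the rest were alike. Of 62 tested genes 17 were higher in larval hearts (27.4%) and 14 at 3 dpi (22.6%), beside 28.7% and 25.3% of all genes. The list median was 0.08, and -0.09 without larval replicate 1. Alike were 26 (41.9%), beside 14.7% of all genes. A gene is alike only if its interval is narrow, and the share of all genes was not matched for level. The counts toward larval hearts and toward 3 dpi were 15 and 8 without larval replicate 2. The nucleolar genes npm1a, at 271, 205, 231 and 221 CPM, nop56, at 139, 115, 113 and 130.1 CPM, and ncl (0.41, interval -0.16 to 0.98) were alike. Higher in larval hearts were the fibrillarin gene fbl (1.71, SE 0.21) and gar1 (2.37, SE 0.20), of RNA modification, and heatr1 (1.83, SE 0.21). pno1, needed for the small subunit, was lower in larval hearts (-1.80, SE 0.24). Leaving out a library ended likeness for ncl without larval replicate 2 or 3 dpi replicate 1 or 2. Other settings ended likeness for ncl with RLE size factors, library totals, no filter and no 7 dpi libraries.

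Ribosomal protein genes had a median near 0 that hid opposite members. Of 80 tested, 12 were higher in larval hearts, 27 at 3 dpi and 14 were alike (median -0.03, 0.13 with library totals and 0.15 without larval replicate 2). Called members higher in larval hearts and at 3 dpi numbered 0 and 26 without larval replicate 1, 0 and 18 without larval replicate 2, 2 and 25 without 3 dpi replicate 1, 1 and 26 without 3 dpi replicate 2, 25 and 27 with library totals, 23 and 28 with DESeq2, 21 and 28 in a fit of the 4 libraries alone and 6 and 27 without the 7 dpi libraries. rplp0, of the ribosomal stalk, was at 2211, 1852, 2179 and 1910.2 CPM, and rpl7 (-0.0013, interval -0.73 to 0.73) was alike too. rpl26 (ENSDARG00000102317) was at 81.5, 61.5, 628 and 621 CPM, a log2 fold change of -3.13 (SE 0.36, adjusted p = 5.47e-05), and rps25, rpl23a and rpl32 were lower in larval hearts, with log2 fold changes of -2.81, -2.50 and -2.49. Higher in larval hearts were rps20 (1.12, SE 0.32) and rps9 (1.00, SE 0.32); rps20 lost its call without larval replicate 1 (adjusted p = 0.0546) or replicate 2 (0.0637), and rps9 without any 1 of the 4 libraries (adjusted p from 0.0627 to 0.0981). Many ribosomal protein genes have near-identical copies, so members with extreme values are uncertain. The interval no longer lay inside 2-fold for rplp0 and rpl7 without larval replicate 1 or 2.

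Amino acid transport genes leaned to larval hearts. Of 43 transport genes 23 were higher in larval hearts (53.5%) and 7 at 3 dpi (16.3%), against 28.7% and 25.3% of all genes (median 0.87). Alike were 6 (14.0%), near the 14.7% of all genes. slc1a5 (ENSDARG00000099186), a glutamine transporter gene, was at 202, 211, 23.1 and 21.3 CPM, a log2 fold change of 3.21 (SE 0.22, adjusted p = 1.94e-06), and its relative slc1a4 at 195, 201, 6.37 and 9.30 CPM, a log2 fold change of 4.66 (SE 0.34, adjusted p = 2.94e-06). slc7a5 (ENSDARG00000099265), which encodes the light chain of the large neutral amino acid transporter LAT1, was at 27.6, 39.3, 1.97 and 1.77 CPM, a log2 fold change of 4.16 (SE 0.35, adjusted p = 7.09e-06). Its heavy chain gene slc3a2b was higher in larval hearts (0.92, SE 0.22), the neutral transporter gene slc38a2 (1.46, SE 0.27), and the cationic transporter gene slc7a3a (3.38, SE 0.57), or 4.12 without 3 dpi replicate 1. The glutamate transporter gene slc1a1 was at 35.6, 30.5, 0 and 0.0519 CPM. The part of the other larval tissues in the levels of these transporter genes was not tested.

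A smaller set of transporters was higher in the adult hearts. slc43a2b (ENSDARG00000061120), a large neutral amino acid transporter gene of another family, was at 18.3, 26.3, 163 and 88.0 CPM, a log2 fold change of -2.49 (SE 0.34, adjusted p = 1.62e-04), and slc43a3b of the same family at 7.36, 6.74, 281 and 176 CPM. slc7a7, a cationic amino acid transporter gene also listed here as a macrophage marker, was at 13.5, 14.99, 146 and 75.3 CPM, a log2 fold change of -2.95 (SE 0.33, adjusted p = 4.05e-05). In all 3 the 3 dpi libraries lay above the larval libraries, and replicate 1 was the higher at 3 dpi. That replicate also held the higher macrophage sum, and the part of macrophages in these levels was not tested. The taurine transporter gene slc6a6b was alike at 63.8, 65.1, 52.4 and 78.4 CPM.

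Among 60 genes of amino acid and polyamine metabolism 29 were higher in larval hearts, 8 at 3 dpi and 13 were alike (median 0.67). Toward larval hearts and toward 3 dpi the counts became 27 and 5 without larval replicate 1, 27 and 5 without larval replicate 2 and 30 and 5 with library totals. psat1 (ENSDARG00000016733), of serine synthesis, was at 378, 357, 16.04 and 14.7 CPM, a log2 fold change of 4.58 (SE 0.24, adjusted p = 5.88e-07). phgdh, the first enzyme of that path, chosen after its values were seen, was at 255, 277, 2.72 and 1.04 CPM. The methionine adenosyltransferase gene mat2ab was higher in larval hearts (4.05, SE 0.32), and pah, a phenylalanine hydroxylase gene of liver, was at 61.9, 61.6, 0.290 and 0.0519 CPM. Markers of liver, gut, pancreas and yolk leaned to the larval pools, and the part of such tissues in these levels was not tested. Lower in larval hearts were the mitochondrial aminotransferase gene got2a (-1.71, SE 0.33), the arginase gene arg2 (-1.58, SE 0.29) and bckdk (-1.23, SE 0.25), which restrains breakdown of branched-chain amino acids. bcat2 (0.0045, interval -0.51 to 0.52), of that breakdown, glud1a (-0.21, interval -0.66 to 0.24) and the antizyme gene oaz1a (0.18, interval -0.38 to 0.75) were alike. Likeness was lost for oaz1a without 3 dpi replicate 2.

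asns, chac1, sesn2, atf4b and nupr1, known from the response of cells to amino acid shortage, were higher in larval hearts, while the list they belong to was mixed. asns (ENSDARG00000016375), the asparagine synthetase gene, was at 197, 206, 40.5 and 32.3 CPM, a log2 fold change of 2.47 (SE 0.26, adjusted p = 3.11e-05). chac1 was at 1035, 1048, 179 and 175 CPM, and sesn2, a leucine sensor gene upstream of mTOR, at 85.7, 82.3, 10.4 and 9.82 CPM, a log2 fold change of 3.05 (SE 0.24, adjusted p = 5.16e-06). The master factor gene atf4b was higher (1.53, SE 0.23), and nupr1 (4.01, SE 0.42). In the full list of the integrated and ER stress response 16 of 44 were higher in larval hearts, 7 at 3 dpi and 14 were alike (median 0.25). Counts of members higher in larval hearts and at 3 dpi were 14 and 4 without larval replicate 1, 14 and 3 without larval replicate 2 and 17 and 2 without 3 dpi replicate 1. Among ER chaperone genes, hsp90b1 was lower in larval hearts (-1.28, SE 0.29), and calr (-0.01, interval -0.53 to 0.51) and sel1l (0.13, interval -0.31 to 0.56) were alike.

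mTOR pathway genes themselves were called in both directions, less often toward larval hearts than genes at large, and many were alike. Of 60 tested 10 were higher in larval hearts (16.7%) and 19 at 3 dpi (31.7%), beside 28.7% and 25.3% of all genes (median -0.36). Alike were 23 (38.3%), beside 14.7% of all genes, a share not matched for level. Neither called nor alike were 9. For larval hearts and 3 dpi the numbers were 4 and 14 without larval replicate 1, 4 and 13 without larval replicate 2, 4 and 16 without 3 dpi replicate 1 and 4 and 16 without 3 dpi replicate 2. eif4ebp1 (ENSDARG00000043608), the translation repressor that mTOR inactivates, was at 73.1, 71.5, 71.3 and 71.1 CPM, with a log2 fold change of 0.02 (95% interval -0.46 to 0.50). Its relative eif4ebp2 (0.18, interval -0.38 to 0.75), the Rag GTPase gene rragca (0.05, interval -0.39 to 0.50) and the cap-binding gene eif4eb (0.17, interval -0.25 to 0.59) were alike. mtor, the kinase gene, chosen after its values were seen, was at 28.8, 28.5, 57.1 and 56.7 CPM, a log2 fold change of -0.99 (SE 0.21, adjusted p = 0.00289). An interval past 2-fold was found for eif4ebp2 without larval replicate 2.

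Cap-binding and starvation genes split within the pathway. eif4e1c (ENSDARG00000012274), a fish-specific cap-binding gene known from zebrafish heart regeneration, was at 104.7, 98.7, 51.6 and 62.0 CPM, a log2 fold change of 0.84 (SE 0.20, adjusted p = 0.00486), and eif4ea was higher in larval hearts (1.40, SE 0.26). The lysosome regulator gene tfeb (ENSDARG00000010794) was at 6.17, 4.51, 24.96 and 31.0 CPM, a log2 fold change of -2.39 (SE 0.26, adjusted p = 4.05e-05), and the autophagy kinase gene ulk2 at 4.50, 5.61, 36.4 and 26.6 CPM, a log2 fold change of -2.64 (SE 0.25, adjusted p = 1.55e-05). fnip1, a partner of folliculin, was lower in larval hearts (-1.87, SE 0.24). ddit4, an mTOR inhibitor gene induced by stress, was at 16.5, 21.1, 214 and 28.0 CPM, a log2 fold change of -2.69 (SE 0.68) that rests on 3 dpi replicate 1: without it the value was -0.59 (adjusted p = 0.108), and without replicate 2 it was -3.51.

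**Figure D3:**
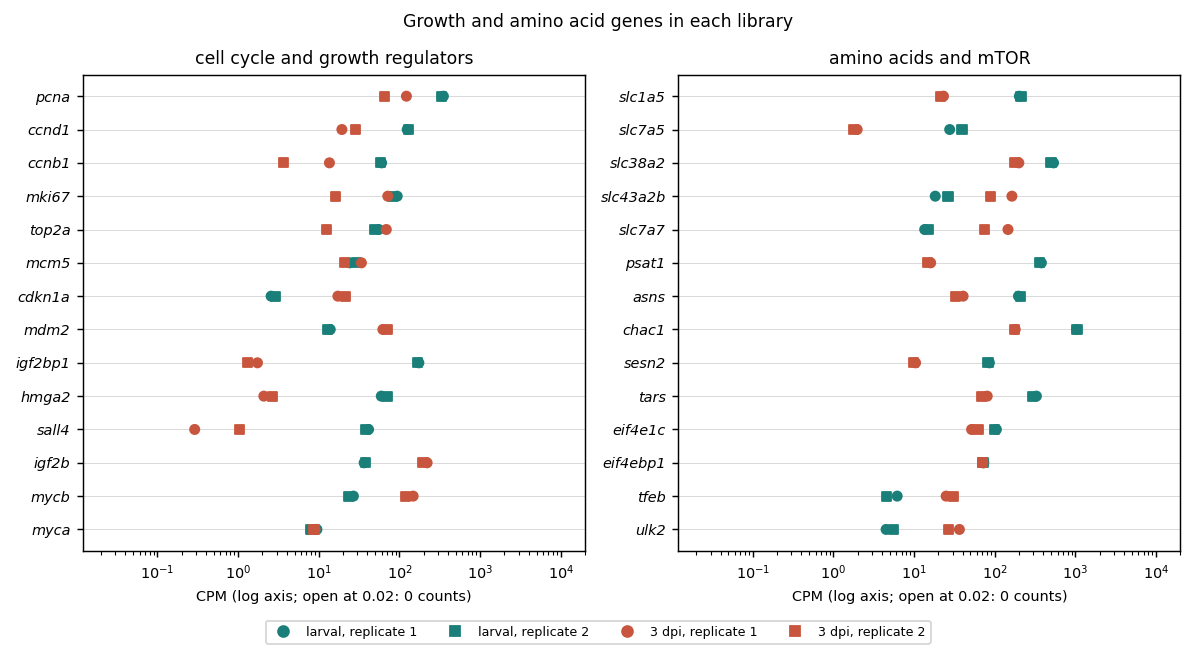
Level of growth, amino acid and mTOR genes in CPM (log axis) in the 4 libraries, larval in green and 3 dpi in red, circles for replicate 1 and squares for replicate 2. igf2bp1, hmga2, slc1a5, slc7a5, psat1 and sesn2 lie higher in larval hearts, mycb, igf2b, tfeb and ulk2 lie higher at 3 dpi, and the 4 values of eif4ebp1 lie together near 71 to 73 CPM.

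Of 87 nuclear genes of the respiratory complexes 25 were alike, 8 were higher in larval hearts (9.2%) and 10 at 3 dpi (11.5%), with a median of 0.32. Both shares were below the 28.7% and 25.3% of all genes in the edgeR fit with TMM. With library totals the larval share was not: 29 of the 87 were higher in larval hearts, beside 6185 of all 19330 genes. The counts toward larval hearts and toward 3 dpi were 5 and 9 without larval replicate 1, 3 and 12 without 3 dpi replicate 1, 17 and 8 without 3 dpi replicate 2, 29 and 10 with library totals, 20 and 10 with DESeq2, 18 and 12 with no filter and 14 and 11 in a fit of the 4 libraries alone. atp5a1 (ENSDARG00000010149), an ATP synthase subunit gene, was at 1199, 1146, 964 and 1385 CPM, a log2 fold change of -0.0026 (95% interval -0.71 to 0.71). The complex I genes ndufa3 (0.02, interval -0.57 to 0.60) and ndufs4 (0.01, interval -0.65 to 0.67) and the oxidase gene ndufa4 (-0.15, interval -0.91 to 0.61) were alike. Of 13 mitochondrially encoded genes 0 were called higher in larval hearts by edgeR, DESeq2 or limma voom (0 at an unadjusted p under 0.05 in edgeR), 2 were higher at 3 dpi and 3 were alike (median -0.06, 0.12 with library totals and 0.28 without 3 dpi replicate 2): mt-nd5 was at 719, 580.0, 2125 and 3229 CPM, a log2 fold change of -2.04 (SE 0.36, adjusted p = 8.73e-04), and mt-nd6 was lower in larval hearts (-2.35, SE 0.34). mt-nd1, mt-nd3 and mt-nd4 were alike, and mt-co1 was undecided at 14606, 13999, 16249.5 and 22032 CPM. mt-nd5 and mt-nd6 lie on opposite strands next to each other in vertebrates, and the sources used here do not give the strand setting of the counting, so reads of one may be counted for the other. Likeness did not hold for atp5a1, ndufa4, mt-nd1, mt-nd3 and mt-nd4 without any 1 of the 4 libraries and ndufs4 without 3 dpi replicate 1 or 2. Likeness also ended for ndufa4 with a fit of the 4 libraries and no 7 dpi libraries and mt-nd4 with no 7 dpi libraries.

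Paired forms of the cytochrome oxidase subunits 6a and 8 went opposite ways. cox6a1 was at 298, 264, 103 and 63.3 CPM, a log2 fold change of 1.76 (SE 0.26, adjusted p = 2.51e-04), and the muscle form cox6a2 at 1.90, 1.35, 58.0 and 108 CPM, a log2 fold change of -5.68 (SE 0.44, adjusted p = 4.33e-06). cox6a1 took 99.4% and 99.5% in larval libraries and 64.0% and 36.9% at 3 dpi of the reads of the pair, and cox8a 84.3% and 89.3% in larval libraries and 25.3% and 15.6% at 3 dpi of the reads of cox8a and cox8b. Both larval libraries had larger shares of these first forms than both 3 dpi libraries. cox7a2a was higher in larval hearts (2.00, SE 0.24) and cox8a (1.81, SE 0.27), whereas cox8b was lower (-2.93, SE 0.36) and cox5b2 (-6.12, SE 0.44), or -5.51 without 3 dpi replicate 2.

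Fatty acid, citrate cycle and sugar genes were mixed. Of 53 genes of fatty acid oxidation 11 were higher in larval hearts (20.8%) and 10 at 3 dpi (18.9%), beside 28.7% and 25.3% of all genes. Alike were 17 (list median -0.04, 0.14 with library totals and 0.21 without 3 dpi replicate 2). Called members higher in larval hearts and at 3 dpi numbered 9 and 6 without larval replicate 2 and 12 and 6 without 3 dpi replicate 2. The uptake gene cd36 was at 52.8, 41.9, 0.0579 and 0.156 CPM, and the lipid droplet gene plin2 was higher in larval hearts (3.34, SE 0.31). fabp11a, a fatty acid binding gene of heart vessels, was at 27.7, 22.9, 591 and 616 CPM, a log2 fold change of -4.58 (SE 0.36, adjusted p = 5.22e-06), and cpt1b, the muscle gate of fatty acid entry, was lower in larval hearts (-1.93, SE 0.24). pdk2b, which holds back pyruvate oxidation, was at 1.67, 1.39, 95.2 and 45.0 CPM. The oxidation enzymes hadhb (0.23, interval -0.54 to 0.99), acaa2 (0.01, interval -0.59 to 0.60) and acad9 (0.02, interval -0.51 to 0.55) and the nuclear receptor gene esrra (-0.02, interval -0.51 to 0.47) were alike. Leaving out a library ended likeness for hadhb without larval replicate 1 or 2 or 3 dpi replicate 2. By setting, likeness ended for hadhb with RLE size factors, library totals and a replicate block.

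Of 39 genes of the citrate cycle, creatine and carriers 4 were higher in larval hearts, 6 at 3 dpi and 11 were alike (median -0.22, and 0.26 without 3 dpi replicate 2). Toward larval hearts and toward 3 dpi the counts became 4 and 12 without 3 dpi replicate 1. sucla2 (0.0041, interval -0.63 to 0.64) and idh3b (0.11, interval -0.44 to 0.66), of the cycle, were alike, and the carrier gene slc25a5 was undecided at 6059.7, 6073, 3204 and 5236 CPM. The creatine kinase genes went opposite ways: ckmb, the form of skeletal muscle, was at 316, 322, 1.68 and 2.44 CPM, and the mitochondrial form ckmt2a at 1.67, 8.58, 66.9 and 125 CPM. Of 47 glycolysis and lactate genes 7 were higher in larval hearts, 18 at 3 dpi and 11 were alike (median -0.45). Counts of members higher in larval hearts and at 3 dpi were 5 and 10 without larval replicate 1 and 5 and 11 without larval replicate 2. gpia, the isomerase gene, was at 341, 311, 355 and 299.6 CPM, a log2 fold change of -0.01 (95% interval -0.54 to 0.53), and pfkpa was alike (-0.11, interval -0.59 to 0.37). aldoaa (-1.23, SE 0.31) and pkma (-1.07, SE 0.27) were lower in larval hearts, with calls lost for both without larval replicate 1 (adjusted p = 0.0816 and 0.0949) and for aldoaa without larval replicate 2 (0.0666). pgam2, a muscle form, was lower (-2.84, SE 0.35), eno1b (-2.82, SE 0.28), and gapdh was undecided at 2113, 2291, 1871 and 4409 CPM. The liver and red cell form pklr was at 28.4, 26.6, 0.232 and 0.987 CPM. The interval no longer lay inside 2-fold for sucla2 and idh3b without 3 dpi replicate 2.

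Embryonic and adult globin genes went opposite ways. hbae3 (ENSDARG00000079305), an embryonic alpha globin gene, was at 266 and 185 CPM in larval hearts with 0 counts at 3 dpi, at least 2709-fold higher. hbaa1 (ENSDARG00000097011), an adult alpha globin gene, had 0 counts in both larval libraries and 642 and 841 CPM at 3 dpi, at least 14430.0-fold higher, and hbaa2 at least 4707-fold. In all 8 of 9 tested embryonic globins were higher in larval hearts (median 7.43, or 4.33 with genes at 0 counts set at their bound). The remaining gene, hbae5, was undecided in that fit at 0.595, 0.548, 1.22 and 1.82 CPM. DESeq2 called 6 of the 9 higher in larval hearts, without hbae1.2 and hbbe1.2. In a fit of the 4 libraries alone, without the 7 dpi libraries or with no filter, 1 of the 9 was called higher at 3 dpi. All 4 tested adult globins were higher at 3 dpi, also without any 1 library (median -15.93, or -13.19 with such genes at their bound), and hbba2 was at 0.111, 0.0322, 419 and 507 CPM. Of the beta chains, the embryonic hbbe1.1 was at 21.7, 14.0, 0 and 0 CPM and hbbe2 at 9.77, 6.03, 0.521 and 0.260 CPM. Each of these embryonic genes was far above its 3 dpi level in both larval libraries. hbba1 is the symbol of 2 gene identifiers and gets no value here. Globin genes have near-identical copies, so values of single members are uncertain.

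Most other red cell genes were higher at 3 dpi. Of 30 tested 4 were higher in larval hearts and 20 at 3 dpi (median -2.84). The haem synthesis gene alas2 was at 16.8, 13.9, 380.5 and 367 CPM, a log2 fold change of -4.61 (SE 0.43, adjusted p = 1.40e-05), and the erythroid factor gene gata1a at 0.706, 0.484, 25.9 and 24.4 CPM, a log2 fold change of -5.40 (SE 0.27, adjusted p = 4.82e-07). The membrane skeleton gene epb41b was lower in larval hearts (-6.41, SE 0.35) and the carbonic anhydrase gene cahz (-3.95, SE 0.45). prdx2, a peroxiredoxin gene that other cells also use, was higher in larval hearts (1.89, SE 0.29), and the iron transporter gene slc11a2, at 63.4, 62.7, 67.9 and 57.9 CPM, and the gene tspo (-0.21, interval -0.85 to 0.43) were alike. Likeness was lost for tspo without larval replicate 1 or 2 or 3 dpi replicate 1.

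Most macrophage markers were far higher at 3 dpi. Of 50 macrophage markers 40 were higher at 3 dpi and 6 in larval hearts, with a median of -5.43 and summed levels of 929 and 965 CPM against 9309 and 4303 CPM. spi1b (ENSDARG00000000767), the myeloid master factor gene, was at 0.149, 0.129, 119 and 59.21 CPM, a log2 fold change of -9.26 (SE 0.52, adjusted p = 7.75e-07). The complement gene c1qc was at 0.111, 0.0322, 192 and 92.7 CPM, and the phosphatidylserine receptor gene havcr1 at 0.409, 0.645, 94.5 and 69.1 CPM. mpeg1.1, a macrophage perforin gene chosen after its values were seen, was at 0.929, 0.580, 175 and 83.1 CPM. Macrophage genes that act in lysosomes of other cells as well differed less: ctsd (-2.82, SE 0.36) and lgmn (-3.89, SE 0.41), or -3.24 without 3 dpi replicate 1.

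Most antigen presentation and complement genes were higher at 3 dpi. Of 42 tested 31 were higher at 3 dpi and 5 in larval hearts (median -2.85). For larval hearts and 3 dpi the numbers were 3 and 28 without larval replicate 2, 2 and 31 without 3 dpi replicate 2 and 3 and 30 with DESeq2. cd74a (ENSDARG00000009087), the class II chaperone gene, was at 0.223, 0.0645, 373 and 371 CPM, and cd74b at 0.260, 0.226, 330.2 and 268 CPM, a log2 fold change of -10.23 (SE 0.38, adjusted p = 2.66e-07). The immunoproteasome gene psmb8a was at 0.186, 0.129, 68.6 and 54.8 CPM, a log2 fold change of -8.57 (SE 0.36, adjusted p = 2.80e-07), and the class I gene mhc1uka was lower in larval hearts (-6.86, SE 0.30) and b2m (-4.82, SE 0.31). Class I and class II genes come in near-identical copies, so values of single members are uncertain. Of 35 lymphocyte and NK cell genes 22 were higher at 3 dpi and 4 in larval hearts (median -3.83, or -3.74 with genes at 0 counts at their bound): ikzf1, a lymphoid factor gene, was lower in larval hearts (-3.74, SE 0.34), the T cell receptor chain gene cd247 (-5.43, SE 0.56) and the B cell adaptor gene blnk (-6.72, SE 0.68), and the antibody gene ighv1-4 had 0 counts in larval hearts and 14.4 and 23.3 CPM at 3 dpi.

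The cytokine genes il1b, cxcl8a, tnfa and tnfb were higher in larval hearts. il1b (ENSDARG00000098700), interleukin 1 beta, was at 86.5, 74.95, 5.15 and 2.29 CPM, a log2 fold change of 4.45 (SE 0.37, adjusted p = 6.56e-06), and the neutrophil attractant gene cxcl8a (ENSDARG00000104795) at 181, 223, 6.89 and 2.49 CPM, a log2 fold change of 5.44 (SE 0.69, adjusted p = 1.02e-04). tnfb, of the tumour necrosis factor family, was at 93.4, 101, 11.6 and 7.27 CPM, a log2 fold change of 3.36 (SE 0.30, adjusted p = 9.90e-06). In these genes both larval libraries lay well above both 3 dpi libraries, and without 3 dpi replicate 1 the values of il1b and cxcl8a were 5.12 and 6.32. tnfa was at 18.8, 19.5, 0.811 and 0.104 CPM, and the matrix metalloproteinase gene mmp9 at 369.8, 442, 31.4 and 52.5 CPM, a log2 fold change of 3.27 (SE 0.35, adjusted p = 3.15e-05). The NF-kappaB genes nfkb2 and relb were higher in larval hearts, with log2 fold changes of 2.15 and 2.101. Skin and gut markers, which stood higher in the same libraries, come from tissues that also make these cytokines, and their part was not tested.

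The neutrophil list was called in both directions. Of 30 tested 7 were higher in larval hearts and 17 at 3 dpi (median -1.69): the granule gene npsn was at 0.706, 1.77, 42.6 and 51.5 CPM and lyz, chosen after its values were seen, at 0.855, 1.77, 32.3 and 33.4 CPM, while il1b, cxcl8a and mmp9 of the same list were higher in larval hearts. Of 61 interferon and cytokine signalling genes 23 were higher in larval hearts, 25 at 3 dpi and 3 were alike (median -0.21, and 0.05 without 3 dpi replicate 1). The counts toward larval hearts and toward 3 dpi were 13 and 21 without larval replicate 2. The interferon genes stat2 and rsad2 were lower in larval hearts, with log2 fold changes of -3.29 and -6.93, and irg1, an itaconate synthesis gene of activated macrophages, was undecided at 17.2, 21.1, 41.2 and 15.7 CPM.

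**Figure D4:**
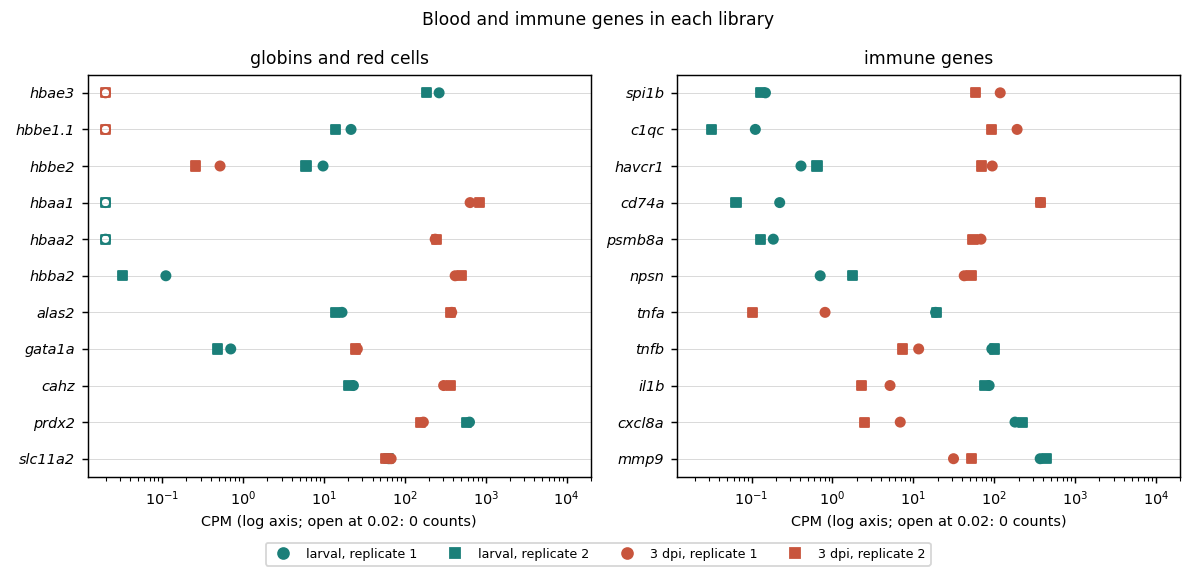
Level of globin, red cell and immune genes in CPM (log axis) in the 4 libraries, larval in green and 3 dpi in red, circles for replicate 1 and squares for replicate 2; open symbols at 0.02 stand for 0 counts. Embryonic and adult globins exchange places, macrophage and antigen genes lie higher at 3 dpi, and tnfa, tnfb, il1b, cxcl8a and mmp9 lie higher in larval hearts.

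Epicardial and fibroblast genes were called in both directions. Of 53 genes of epicardium and fibroblasts 13 were higher in larval hearts (24.5%) and 21 at 3 dpi (39.6%), beside 28.7% and 25.3% of all genes. Alike were 8 (list median -0.25). aldh1a2 (ENSDARG00000053493), the retinoic acid synthesis gene of activated epicardium and endocardium, was at 69.6, 81.2, 516 and 459.8 CPM, a log2 fold change of -2.69 (SE 0.24, adjusted p = 1.07e-05). The epicardial factor genes tcf21 and tbx18, both chosen after their values were seen, were lower in larval hearts, with log2 fold changes of -1.15 and -1.101, and tcf21 lost its call without larval replicate 2 (adjusted p = 0.154) or 3 dpi replicate 2 (0.112). The keratin gene krt8 was lower in larval hearts (-2.66, SE 0.34), and frzb, a secreted Wnt inhibitor gene, was at 0.409, 0.806, 84.5 and 116 CPM. col1a1a (ENSDARG00000012405), fibrillar collagen I, was at 2081, 2364, 578 and 389 CPM, a log2 fold change of 2.1997 (SE 0.29, adjusted p = 1.37e-04), and the growth factor receptor gene pdgfra was higher in larval hearts (1.73, SE 0.26). postna, a gene of regenerative fibroblasts, was alike at 70.5, 81.5, 92.2 and 88.6 CPM, as was col5a1 (-0.09, interval -0.66 to 0.47).

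Matrix genes were mixed as well. Of 67 tested 26 were higher in larval hearts, 16 at 3 dpi and 8 were alike (median 0.62). The cross-linker of hyaluronan hapln1a was at 424, 510.1, 45.5 and 132 CPM, a log2 fold change of 2.397 (SE 0.42, adjusted p = 8.24e-04), and the hyaluronan synthase gene has2, of the cardiac jelly, at 64.3, 72.1, 4.23 and 3.74 CPM, a log2 fold change of 4.096 (SE 0.35, adjusted p = 7.46e-06). For hapln1a the value was 1.81 without 3 dpi replicate 1 and 3.36 without replicate 2. nid2a, of basement membranes, was higher in larval hearts (3.69, SE 0.25) and the metalloproteinase gene mmp11b (5.01, SE 0.35). The fibronectin receptor gene itga5 was lower in larval hearts (-2.49, SE 0.22) and the protease gene adam8a (-2.67, SE 0.27). vcanb, a versican gene, was at 74.5, 82.8, 96.2 and 97.3 CPM, and agrn (-0.05, interval -0.51 to 0.42) and lama4 (-0.33, interval -0.76 to 0.09) were alike too. Cartilage and skin markers in the larval pools, given above, make the same matrix families, and their part was not tested. An interval past 2-fold was found for vcanb without larval replicate 2 and lama4 without larval replicate 1.

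Genes of the vessel and chamber lining leaned to 3 dpi, while the cadherin that joins these cells was alike. Of 60 genes of endothelium and endocardium 7 were higher in larval hearts, 35 at 3 dpi and 6 were alike (median -1.08). Called members higher in larval hearts and at 3 dpi numbered 11 and 33 with library totals and 11 and 35 with DESeq2. cdh5 (ENSDARG00000075549), the vascular cadherin gene, was at 265, 283, 272 and 337 CPM, with a log2 fold change of -0.15 (95% interval -0.67 to 0.36), and clec14a was alike (0.09, interval -0.54 to 0.72). vwf (ENSDARG00000077231), the clotting factor gene of mature endothelium, was at 14.2, 17.0, 648 and 719 CPM, a log2 fold change of -5.45 (SE 0.34, adjusted p = 1.28e-06). The flow-responsive gene klf2a was at 10.6, 10.9, 78.3 and 81.9 CPM, a log2 fold change of -2.90 (SE 0.22, adjusted p = 3.37e-06), while the arterial ephrin gene efnb2a was higher in larval hearts (1.65, SE 0.23). Of 30 genes of smooth muscle and bulbus arteriosus 6 were higher in larval hearts and 13 at 3 dpi (median -0.67). The elastin gene elnb of the outflow tract was at 440.5, 684, 26.9 and 103 CPM, a log2 fold change of 3.11 (SE 0.58, adjusted p = 0.00114), and 2.43 without 3 dpi replicate 1 and 4.38 without replicate 2. fbln5 was higher in larval hearts (3.197, SE 0.28), and the pharyngeal gene barx1 had 0 counts at 3 dpi and 38.7 and 65.7 CPM in larval pools. tagln and myh11a, contractile genes of smooth muscle, were lower in larval hearts, with log2 fold changes of -3.59 and -1.82, and acta2 was undecided at 319.8, 324, 234 and 245 CPM. Likeness did not hold for clec14a without 3 dpi replicate 2.

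Signalling genes leaned to larval hearts, with a small set for the adult. Of 118 genes of retinoic acid, Notch, BMP, Wnt and neuregulin signalling 63 were higher in larval hearts, 21 at 3 dpi and 9 were alike (median 1.197). bmp2b, a BMP ligand gene, was at 29.7, 27.3, 0.695 and 0.312 CPM, the Wnt inhibitor gene wif1 at 39.6, 44.6, 2.78 and 3.90 CPM and the mesenchymal growth factor gene fgf10a at 25.2, 21.5, 0 and 0.0519 CPM. The part of the other larval tissues in these levels was not tested. Higher at 3 dpi were bmp10, a ligand gene of trabeculated myocardium (-4.31, SE 0.42), the Notch ligand gene dll4 (-3.01, SE 0.36), the endocardial receptor gene notch1b (-2.47, SE 0.32) and tgfb3 (-2.01, SE 0.22). tgfb1a took 95.1% and 96.2% in larval libraries and 36.5% and 41.8% at 3 dpi of the reads of tgfb1a and tgfb1b. dusp6, spry4 and smad6a, feedback genes of FGF and BMP signalling, were alike: dusp6 was at 265, 275, 245 and 269 CPM, and spry4 (-0.17, interval -0.69 to 0.36) and smad6a (0.27, interval -0.21 to 0.75) had intervals inside 2-fold. Leaving out a library ended likeness for smad6a without 3 dpi replicate 2.

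Clock and hormone genes stood higher at 3 dpi in most cases. Of 50 tested 11 were higher in larval hearts and 27 at 3 dpi (median -1.11). Toward larval hearts and toward 3 dpi the counts became 7 and 24 without larval replicate 2 and 7 and 26 without 3 dpi replicate 1. The clock repressor gene nr1d1 (ENSDARG00000033160) was at 0.0743, 0.129, 35.0 and 43.2 CPM, a log2 fold change of -8.47 (SE 0.36, adjusted p = 2.80e-07), per1b at 1.11, 1.16, 90.6 and 94.9 CPM, and tefa was lower in larval hearts (-4.06, SE 0.29), while arntl1b, of the opposite arm of the clock, was higher (1.80, SE 0.33). dio3b, which inactivates thyroid hormone, was at 22.9, 27.11, 1.27 and 1.66 CPM, a log2 fold change of 4.08 (SE 0.42, adjusted p = 3.96e-05). fkbp5, a glucocorticoid target gene, was at 6.87, 7.32, 471 and 86.0 CPM, and its value of -5.29 (SE 0.69) was -3.61 without 3 dpi replicate 1 and -6.06 without replicate 2. hsd11b2, which inactivates cortisol, was alike (-0.29, interval -0.82 to 0.24). The labels give no hour of collection. The interval no longer lay inside 2-fold for hsd11b2 without larval replicate 1 or 2 or 3 dpi replicate 1.

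Stress and degradation genes held both kinds of pattern. Of 49 immediate early and heat shock genes 12 were higher in larval hearts (24.5%) and 16 at 3 dpi (32.7%), near the 28.7% and 25.3% of all genes. Alike were 9 (18.4%), beside 14.7% of all genes. The list median was 0.09, -0.05 without larval replicate 1 and -0.08 without 3 dpi replicate 2. Counts of members higher in larval hearts and at 3 dpi were 7 and 10 without larval replicate 1, 6 and 11 without larval replicate 2 and 6 and 14 without 3 dpi replicate 2. jun (ENSDARG00000043531), an AP-1 factor gene of wounds, was at 164, 168, 160.2 and 188 CPM, a log2 fold change of -0.07 (95% interval -0.56 to 0.42), and klf6a was alike (0.14, interval -0.31 to 0.59). hspb11, a heat shock gene, was at 17.8, 14.1, 992 and 1670.0 CPM, a log2 fold change of -6.38 (SE 0.40, adjusted p = 1.39e-06), and the inducible hsp70l was lower in larval hearts (-4.07, SE 0.33). serpinh1b, the collagen chaperone gene, was higher in larval hearts (3.89, SE 0.26), and the constitutive hspa8 (1.01, SE 0.33), a call lost without larval replicate 1 (adjusted p = 0.126), larval replicate 2 (0.0923) or 3 dpi replicate 2 (0.092). Of 73 proteasome and lysosome genes 28 were alike, 7 were higher in larval hearts and 33 at 3 dpi (median -0.36). For larval hearts and 3 dpi the numbers were 1 and 25 without larval replicate 1, 1 and 22 without larval replicate 2, 1 and 26 without 3 dpi replicate 1 and 14 and 28 with library totals. The proteasome genes psmb4, at 147, 139, 149.8 and 147 CPM, and psmd8 (-0.05, interval -0.49 to 0.40) and the proton pump gene atp6v0d1 (-0.07, interval -0.52 to 0.38) were alike, whereas the lysosomal genes psap and ctsk were lower in larval hearts, with log2 fold changes of -2.49 and -3.29, beside the macrophage sums given above.

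Outside the lists, genes with narrow bounds around no difference included some of chromatin, protein turnover and traffic. chd2, a chromatin remodeller gene, was at 62.5, 58.5, 57.8 and 62.6 CPM, and its log2 fold change was 0.01 (95% interval -0.41 to 0.42). trip12, a ubiquitin ligase gene, was at 92.9, 90.4, 90.2 and 92.5 CPM, usp5, a deubiquitinase gene, at 102, 117, 110.1 and 106 CPM, and rbbp6, another ubiquitin ligase gene, at 68.5, 64.2, 67.3 and 68.7 CPM. These genes were picked for narrow bounds around no difference, so the overlap of their libraries follows from that choice. The clathrin gene cltcb (0.05, interval -0.38 to 0.47) and the splicing factor gene srsf2a (-0.01, interval -0.47 to 0.45) had bounds of similar width. By list, the highest shares of alike genes were in ribosome biogenesis (41.9%), proteasome and lysosome (38.4%), the mTOR pathway (38.3%) and fatty acid oxidation (32.1%). The share of all genes was 14.7%, but it was not matched to the lists for level. The lists of thick filament, thin filament, globins, macrophages, neutrophils, lymphocytes, antigen presentation, smooth muscle, skeletal muscle, eye and liver had none.

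**Figure D5:**
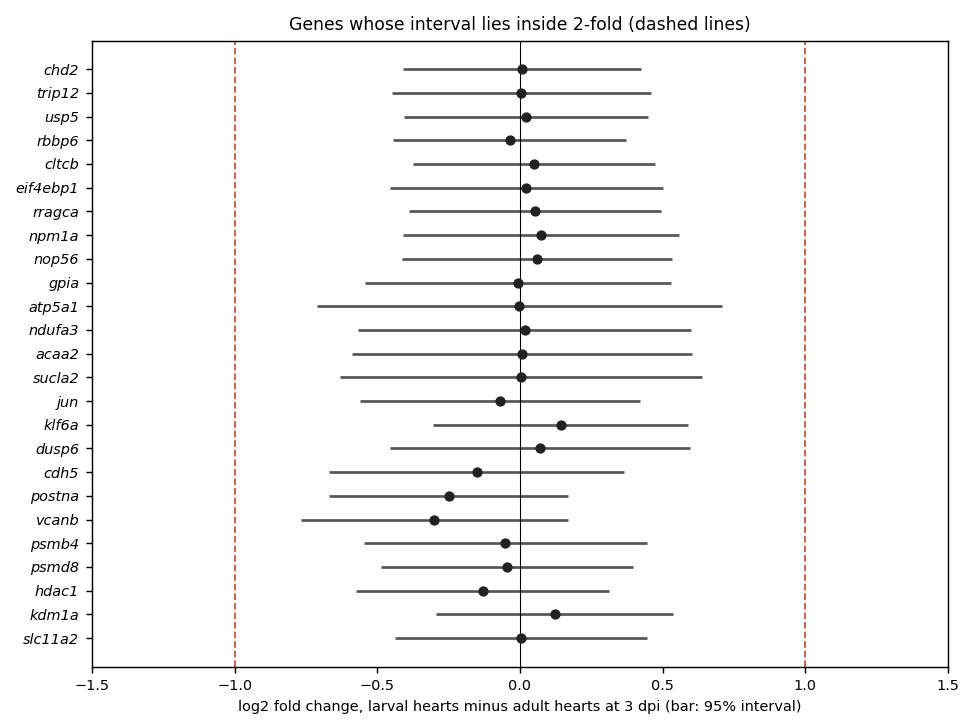
Log2 fold change of 25 named genes called alike, larval hearts minus adult hearts at 3 dpi (points), with the 95% interval of the edgeR fit (bars); dashed lines mark 2-fold. Every interval shown lies inside the dashed lines, with chd2, usp5 and rbbp6 among the narrowest and atp5a1 the widest.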

How the data were processed

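Total RNA extracted with TRIzol from pooled zebrafish hearts was sequenced in bulk, 2 libraries per group. Whole-number counts of reads per gene were deposited for 31953 genes, and per the submitters' processing notes the tools were TopHat2 2.0.13 and HTSeq with the genome build GRCz10. The sources used here do not give the annotation release, the strand setting or the handling of shared reads. A deposited RPM table of the adult libraries, whose values were the same counts divided by the library total (relative tolerance 1e-04, 100.0% of 23350 genes), served only for gene symbols.

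All 8 libraries entered 1 fit in edgeR 4.0.16 (R 4.3.3): filtering on low counts (filterByExpr) left 19330 genes, scaling was TMM, and the quasi-likelihood F test compared larval with 3 dpi libraries, with Benjamini-Hochberg adjustment at 0.05. The other 4 libraries were not compared, but entered the filter, the TMM factors and the estimate of the spread (4 residual degrees of freedom). A fit of the 4 compared libraries alone tested 18715 genes, with a median log2 fold change of 0.07. Likeness was tested with 2 one-sided tests against a margin of 2-fold. With 2 libraries a group an exact permutation test cannot give a p below 0.333, so none was used. Total counts of 11856744 to 19457858 set the counting error, which alone is covered by the bounds against a floor of 3 counts. Scripts were tested on simulated data. DESeq2 1.42.0 and limma 3.58.1 gave alternatives.

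The members and the 42 lists (2094 entries, 2026 matched to a gene) were chosen with earlier results of these data known. Genes were named by 1 rule, which took vmhc and the 15 genes with the largest difference in each direction above a set CPM. The rule also took the 15 alike genes with the narrowest bounds among genes abundant in both groups. List by list it took the 4 with the lowest p each way, the 4 most abundant and the 3 with the narrowest bounds. All members of lists of 15 or fewer were taken. The text gives those that describe a gene group best. The 10 genes outside it are marked where they appear. Sequences were not used here. Results on a few genes are not reported here.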

Additional observations from a re-analysis of the deposited data

How the results depend on the processing

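The count of genes called was 9784 to 11277 under other settings (the replicate block, the 4 libraries alone, no 7 dpi libraries, other scalings and filters, DESeq2 and limma voom), against 10449, and leaving out 1 library gave 6792 to 8604. Genes higher in larval hearts then numbered 3639 to 4467 and genes higher at 3 dpi 3153 to 4213. Tested against a fold of 2 (glmTreat), 6036 genes were called, 3318 higher in larval hearts and 2718 at 3 dpi. The adjusted count of genes within 2-fold was 0 in edgeR under the block, scalings, other libraries and each left-out library, but 1024 without the filter, 1458 with DESeq2, 1065 with limma voom and 6582 with the 3-fold margin. Genes with their own interval inside the margin numbered 320 at 1.5-fold and 7101 at 3-fold, and 1270 to 1998 with 1 library left out. The cause was not tested. Of 226 called genes chosen for naming, 215 to 221 kept call and direction with 1 library left out, 223 to 226 under 11 other settings and 202 under glmTreat, and 0 reversed. Of 75 chosen as alike, 50 to 56 and 69 to 75 did. Replicate numbers are shared only as numbers (correlation of deviations 0.068 for the 2 pairs), and the replicate block gave 9794 calls and ended 1 named call, gata5. The block also ended likeness for atp1a1a.1, il6st and hadhb. A margin of 3-fold, the unadjusted intervals, the shares within gene pairs and the fit without 7 dpi libraries were chosen after seeing the data. A count test on reads recovered from the RPM table was not run, since that table has no larval columns. With 2 pools a group, why genes stayed undecided was not tested.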
